A study of Danio rerio with 15 samples.

Results

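Receptor tyrosine kinases and Ras switch on a kinase relay of Raf, MEK and ERK. Cells limit that relay with inhibitors, and the genes of some of these are induced by ERK. Sprouty proteins bind adaptors and Raf below the receptors, Spred proteins bring the Ras-inactivating protein neurofibromin to the membrane, and dual specificity phosphatases (Dusp) remove the phosphates that activate ERK. In the zebrafish embryo spry2, spry4 and dusp6 are known as genes induced by fibroblast growth factor signaling. Transcripts of 10 genes of these 3 inhibitor families were described here, out of 22513 genes in the deposited table. The 10 are 3 Sprouty (spry1, spry2, spry4), 4 Spred (spred1, spred2a, spred2b, spred3) and 3 Dusp genes (dusp4, dusp5, dusp6). They were chosen by symbol, each matched 1 Ensembl ID, and all 10 passed the filter on low counts. The symbol table gives the ID taken as spred2b (ENSDARG00000008372) the symbol SPRED2, without its paralog letter.

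RNA was sequenced from 7 zebrafish brain tumors, which the submitters describe as driven by NRAS and as primitive neuroectodermal tumors of the central nervous system (CNS-PNET), and from 8 normal whole brains. The libraries carry the numbers 5, 6, 7, 8, 12, 13 and 14 in the tumors and 1, 2, 3, 4, 9, 10, 11 and 15 in normal brain. The labels used here name no strain, age, sex, promoter of the NRAS transgene or other allele, and nothing in them ties each library to its own fish. The p-values therefore measure the spread between these libraries, which may be technical. A tumor is compared with a whole brain, so the 2 groups also differ in the mixture of cells.

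Libraries held 13605588 to 21347976 counts. NRAS (ENSDARG00000038225) was at 7.49 to 10.8 counts per 1000000 library counts (CPM) in normal brain and at 21.2 to 46.2 CPM in the tumors, with no overlap. Against the labelled tissue, 13 of 13 IDs of a pan-neuronal marker list were lower in the tumors, with a summed level of 8829 to 10458 CPM in normal brain and 632 to 2490 CPM in the tumors, and none was at 0 in any library. Oligodendrocyte precursor markers had 3 of 6 IDs higher, none lower and a sum of 105 to 140 against 2028 to 2855 CPM. Markers of myelinating oligodendrocytes had 9 of 10 IDs higher, with sums of 12680 to 19147 and 12176 to 40701 CPM. The remaining ID, mbpa, the most abundant of them in normal brain, was lower, from a mean of 10289 to 4932 CPM. Microglial markers had 11 of 11 higher (371 to 605 against 1611 to 2956 CPM), cell division markers 10 of 10 (91.6 to 139 against 1363 to 2880 CPM), astroglial markers 3 of 12 higher and 5 lower, and endothelial markers 1 of 9 higher and 3 lower (194 to 239 against 83.3 to 266 CPM). Liver transcripts stood out in normal brain 1 (12135 CPM), photoreceptor transcripts in normal brain 2 (153 CPM), skin transcripts in normal brain 4 (4284 CPM), and muscle transcripts in brain tumors 5, 6, 12 and 14 (954 to 2197 CPM against 25.0 to 119 CPM in the other tumors). Among the tumors, skin transcripts were highest in brain tumors 12 and 14 (1330 and 747 CPM), and photoreceptor transcripts in brain tumor 6 (42.9 CPM). What part these mixtures have in the results below was not tested. In bulk tissue, fewer cells of a type and less RNA per cell cannot be told apart.

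Sprouty transcripts rose in the tumors for all 3 genes, Spred transcripts split, and among the phosphatases dusp4 and dusp6 rose while dusp5 fell. In all, 6 members were higher and 2 lower at a Benjamini-Hochberg adjusted p below 0.05 in edgeR's quasi-likelihood test. Of the 19260 genes tested, 76.9% were called, 43.5% as higher and 33.4% as lower, so the number of members called was close to that background. The tumors lay wholly above the normal brains in 4 members and wholly below them in 2. Over all tested genes the share without overlap was 51.9%, with 27.2% above and 24.6% below. The members' median log2 fold change was 0.95, against 0.21 for all tested genes. The counts of 6 and 2 were also found without the 4 libraries in doubt (normal brain 1, 2 and 4 and brain tumor 13) and without the 4 tumors with muscle transcripts. The latter fit kept only brain tumors 7, 8 and 13, and its estimates shifted. Log2 fold changes there were 2.82 for spry1, 2.84 for spry4 and 1.64 for dusp4, against 2.34, 2.55 and 1.26 with all libraries. For dusp6 and dusp5 they were 0.96 and -1.71, against 1.11 and -1.94. Normal brain 1, 2 and 4 carried the liver, photoreceptor and skin transcripts given above. Brain tumor 13 had the lowest pan-neuronal and endothelial sums of all libraries. No label names either set, and both were left out with earlier results of these data known.

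**Figure D1:**
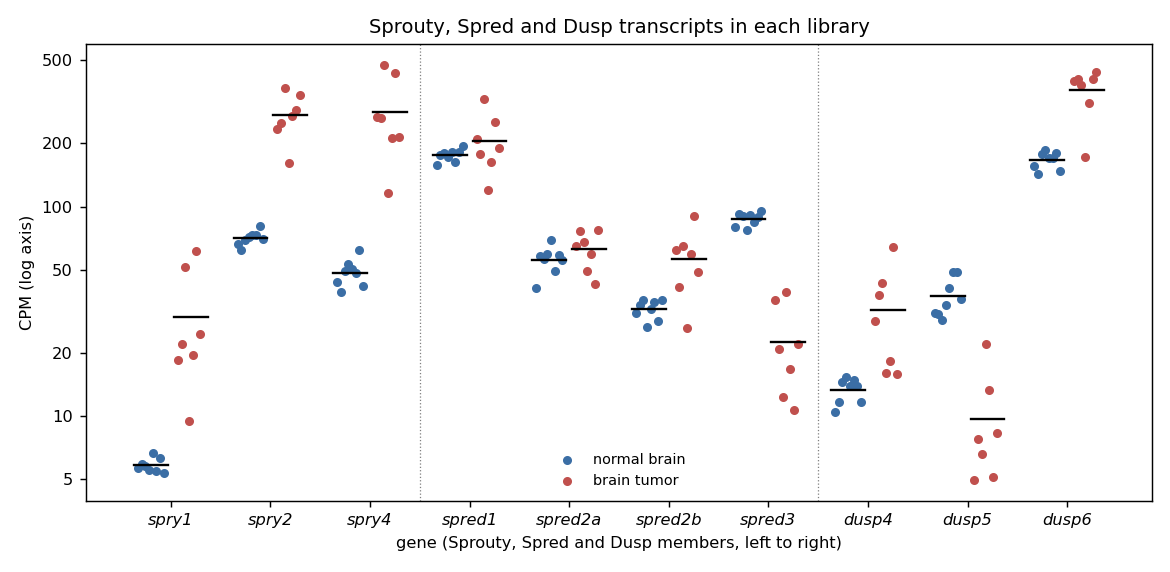
Level of each gene in each library, in CPM on a log axis, with 1 point per library (8 normal brains in blue, 7 brain tumors in red) and a bar at each group mean. The red points of spry1, spry2, spry4 and dusp4 lie above all blue points and those of spred3 and dusp5 below them, and those of spred1, spred2a, spred2b and dusp6 overlap.

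Sprouty proteins act nearest the receptor. SPRY2 (ENSDARG00000078308), which binds the adaptor Grb2 and the ubiquitin ligase Cbl, had a lowest, median and highest level of 62.2, 70.6 and 80.5 CPM in normal brain and of 161, 270 and 369 CPM in the tumors. The lowest tumor, brain tumor 8, had about double the level of the highest normal brain. Group means were 70.7 ± 5.42 CPM in 8 normal brains and 274 ± 68.8 CPM in 7 tumors (± SD here and for later levels). The log2 fold change was 1.95 ± 0.14 (± SE here and for later fold changes), with an adjusted p of 5.65e-09.

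SPRY4 (ENSDARG00000068732), an inhibitor of growth factor signaling to Ras and Raf, went from 39.0, 48.7 and 62.3 CPM (lowest, median, highest) in normal brain to 116, 263 and 474 CPM in the tumors. Brain tumors 7 and 13 were well above the others at 474 and 435 CPM, and brain tumor 8 was the lowest. The means of 48.4 ± 7.32 and 283 ± 128 CPM gave a log2 fold change of 2.55 ± 0.24 (adjusted p = 1.09e-07), the largest of the 10 members.

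SPRY1 (ENSDARG00000103985), known in mouse as an inhibitor of receptor signaling in kidney development, was the least abundant Sprouty gene. It had 5.38, 5.74 and 6.67 CPM (lowest, median, highest) in normal brain, where 83 to 123 reads stood behind each value, and 9.5, 22.2 and 61.5 CPM in the tumors. Brain tumors 7 and 13 were again the high ones, at 51.6 and 61.5 CPM, while brain tumor 8 lay just above the normal brains. The log2 fold change was 2.34 ± 0.31 (adjusted p = 4.83e-06), and 2.06 without brain tumor 13.

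Per unit of gene length, the summed Sprouty level was 56.9 ± 5.37 FPKM (the authors' counts per kilobase and per 1000000 counts) in normal brain and 242 ± 64.8 FPKM in the tumors. The lowest tumor, at 130 FPKM, exceeded the highest normal brain, at 66.0 FPKM. Within that sum the shares were similar in both groups for spry1, at 8.51% ± 0.801 and 8.50% ± 2.79. The share of spry2 was 56.0% ± 1.70 in normal brain and 48.1% ± 8.31 in the tumors, and that of spry4 was 35.5% ± 2.08 and 43.4% ± 6.34. The log2 CPM of spry2 minus that of spry4 was 0.56 ± 0.13 (SD) in normal brain and 0.04 ± 0.47 in the tumors. This difference of changes, -0.52, had an adjusted p of 0.0152 in a two-sided exact permutation test of the libraries. The adjustment was over the 12 pairs within the 3 families. On average spry4 thus rose more than spry2, but the groups overlapped in this difference. Between spry1 and spry4 the difference of -0.35 just passed (exact permutation test, adjusted p = 0.0452). It did not pass without normal brain 1, 2, 3, 9, 10 or 15 or without brain tumor 5, 6, 8 or 12, where it was -0.36 to -0.27, nor with a prior count of 0.5 (-0.34, adjusted p = 0.0562).

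**Figure D2:**
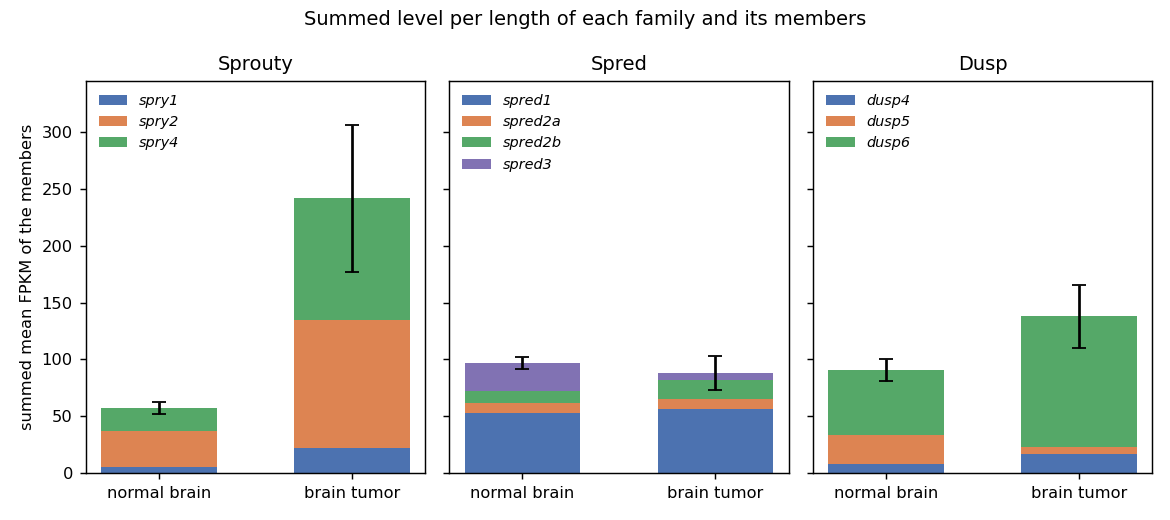
Summed level per length of each family, in FPKM, stacked from the mean of each member in 8 normal brains and 7 brain tumors, with the SD of the sum over libraries as the error bar. The Sprouty column is about 4 times as tall in the tumors (a ratio of 4.25), the Spred columns are close in height with a thinner spred3 layer in the tumors, and the Dusp column grows through dusp6 while its dusp5 layer shrinks.

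Spred proteins carry an EVH1 domain and a Sprouty-related tail. SPRED1 (ENSDARG00000041449), whose protein recruits neurofibromin and whose loss in people causes Legius syndrome, was the most abundant of them in both groups. Its levels were 158, 178 and 194 CPM (lowest, median, highest) in normal brain and 120, 191 and 327 CPM in the tumors. Of the tumors, 3 lay above every normal brain and 1, brain tumor 8, below. The means of 176 ± 11.5 and 206 ± 67.2 CPM gave a log2 fold change of 0.23 ± 0.16, which did not pass (adjusted p = 0.214).

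SPRED2, a Spred protein found in many tissues, has 2 copies here. The gene spred2a (ENSDARG00000052435) had 41.1, 57.1 and 69.2 CPM in normal brain and 42.6, 65.2 and 77.5 CPM in the tumors (lowest, median, highest). The groups overlapped widely, and the log2 fold change of 0.16 ± 0.14 did not pass (adjusted p = 0.288). It was -0.04 with median-ratio size factors, so it has no direction that can be stated.

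The other copy, spred2b, was at 26.6, 33.3 and 36.0 CPM in normal brain and at 26.3, 59.4 and 89.8 CPM in the tumors. Here 6 tumors lay above every normal brain, while brain tumor 8 lay just below all of them. The log2 fold change of 0.79 ± 0.19 passed (adjusted p = 0.00136), and it was 0.60 with an adjusted p of 0.0797 when libraries 1 to 8 were fitted alone. The log2 CPM of spred2a minus that of spred2b was 0.77 ± 0.29 in normal brain and 0.22 ± 0.69 in the tumors. The difference of -0.56 did not pass (exact permutation test, adjusted p = 0.0568), but it did without brain tumor 6, 8 or 14 (-0.67 to -0.63).

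SPRED3 (ENSDARG00000040358), whose mouse counterpart is expressed mainly in brain, fell. Its levels were 77.0, 89.8 and 95.7 CPM in normal brain and 10.7, 20.9 and 39.0 CPM in the tumors (lowest, median, highest). No tumor came near the normal range, and brain tumors 8 and 5 were the highest at 39.0 and 35.9 CPM. The means of 87.5 ± 6.32 and 22.5 ± 11 CPM gave a log2 fold change of -1.96 ± 0.24 (adjusted p = 2.24e-06).

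The summed Spred level overlapped between the groups, at 96.5 ± 5.39 FPKM in normal brain and 88.0 ± 14.9 FPKM in the tumors. Its largest part, spred1, was at 52.9 ± 3.02 FPKM in normal brain and 56.4 ± 13.9 FPKM in the tumors. The share of spred3 in this sum was 23.7% to 26.2% in normal brain and 2.59% to 17.3% in the tumors. The share of spred1 was 53.5% to 57.1% and 57.3% to 73.8%, and that of spred2b 9.72% to 12.8% and 14% to 26.0%. The change of spred3 differed from that of each other Spred gene in the exact permutation test. Those differences were 2.26 from spred1, 2.24 from spred2a and 2.80 from spred2b on the log2 scale, each with an adjusted p of 0.000373 and an unadjusted p of 0.000155, the smallest this test can give. Between spred1 and spred2b the difference was -0.54 (exact permutation test, adjusted p = 0.000932), and between spred1 and spred2a it was 0.02 (exact permutation test, adjusted p = 0.932).

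Among the phosphatases, DUSP6 (ENSDARG00000070914) is specific for ERK and acts in the cytoplasm. It was at 143, 170 and 185 CPM in normal brain and at 173, 399 and 436 CPM in the tumors (lowest, median, highest). Of the tumors, 6 were at 313 CPM or more, and only brain tumor 8, at 173 CPM, was within the normal range. The means of 166 ± 15.9 and 358 ± 90.4 CPM gave a log2 fold change of 1.11 ± 0.16 (adjusted p = 8.3e-06).

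DUSP4 (ENSDARG00000044688), a nuclear phosphatase that acts on ERK and on the stress-activated kinases, was at 10.5, 13.9 and 15.3 CPM in normal brain and at 15.9, 28.5 and 64.2 CPM in the tumors. All tumors were above all normal brains, but brain tumors 8, 12 and 14 by little, at 15.9 to 18.4 CPM. The log2 fold change was 1.26 ± 0.27 (adjusted p = 0.000484). In libraries 9 to 15 alone it was 1.11 with an adjusted p of 0.0703.

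DUSP5 (ENSDARG00000019307), a nuclear phosphatase specific for ERK, went the other way. It was at 28.9, 35.1 and 48.9 CPM in normal brain and at 4.96, 7.83 and 22.1 CPM in the tumors. Every tumor was below every normal brain, brain tumor 8 being the nearest to them. The means of 37.4 ± 7.93 and 9.75 ± 6.11 CPM gave a log2 fold change of -1.94 ± 0.30 (adjusted p = 1.83e-05), and -2.37 without brain tumor 8.

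The change of dusp5 differed from those of dusp4 and dusp6 by 3.18 and 3.15 on the log2 scale. Both differences had an adjusted p of 0.000373 in the exact permutation test. Between dusp4 and dusp6 it was 0.03 (exact permutation test, adjusted p = 0.932). The Dusp sum was 90.7 ± 9.84 FPKM in normal brain and 138 ± 27.9 FPKM in the tumors, with overlap at the low end of the tumors (85.0 FPKM). In this sum dusp6 took 58.7% to 69.0% in normal brain and 71.3% to 91.1% in the tumors, while dusp5 took 21.8% to 32.8% and 1.94% to 17.8%.

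**Figure D3:**
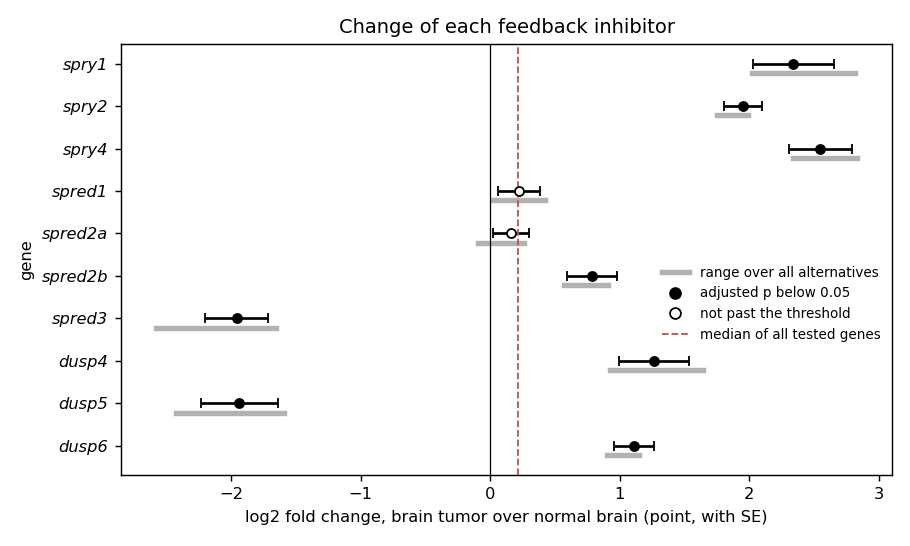
Log2 fold change of each gene, brain tumor over normal brain, as a point with its SE (filled where the adjusted p is below 0.05), and the range of that value over all alternative settings as a grey bar. The bars of spred1 and spred2a lie near 0 and the dashed median of all tested genes at 0.21, and all other bars stay on the side of their point.

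The authors' deposited table gave the same signs for 9 of the 10 members. The exception was spred2a, at a log2 fold change of -0.04 in the authors' deposited table with an adjusted p of 0.791. Its values ran lower throughout, with 2.32 for spry4, 1.74 for spry2, 0.90 for dusp6 and 0.02 for spred1 in the authors' deposited table. With median-ratio size factors, which moved the median of all tested genes from 0.21 to 0.02, spry4 was at 2.34, dusp6 at 0.90 and spred3 at -2.14. Relative to that median the members hardly moved, as spry4 was 2.33 above it with the trimmed-mean scaling and 2.32 above it with the median-ratio factors.

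Ordered by level per length in normal brain, dusp6 (57.8 ± 5.88 FPKM) and spred1 (52.9 ± 3.02 FPKM) came first and overlapped. They were followed by spry2 at 31.8 ± 2.32, dusp5 at 25.4 ± 5.24, spred3 at 24.5 ± 1.5 and spry4 at 20.3 ± 3.02 FPKM, each overlapping its neighbor in this order. A lower group held spred2b (10.9 ± 1.11 FPKM), spred2a (8.18 ± 1.22 FPKM) and dusp4 (7.58 ± 1.07 FPKM), and spry1 was the lowest at 4.81 ± 0.374 FPKM. Gaps without overlap lay after spred1, after spry4 and after dusp4.

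In the tumors the order was dusp6 (115 ± 29.5 FPKM), spry2 (113 ± 25.9 FPKM), spry4 (107 ± 38.5 FPKM), spred1 (56.4 ± 13.9 FPKM) and spry1 (21.7 ± 11.7 FPKM). Below these came spred2b (17 ± 4.82 FPKM), dusp4 (16.3 ± 7.56 FPKM), spred2a (8.58 ± 2.16 FPKM), dusp5 (6.33 ± 4.35 FPKM) and spred3 (6.03 ± 3.25 FPKM). Every neighboring pair overlapped. Sprouty genes thus stood higher in the order than in normal brain, and dusp5 and spred3 moved from the middle to its end.

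The members varied more among tumors than among normal brains. The SD of log2 CPM was 0.10 to 0.30 over the normal brains and 0.32 to 0.91 over the tumors, against medians of 0.19 and 0.49 over all tested genes. The widest spread in the tumors was that of spry1 (0.91) and the narrowest that of spred2a (0.32). Brain tumor 8 was the lowest tumor for 6 members, all 3 Sprouty genes, spred1, spred2b and dusp6, and the highest for spred3 and dusp5. In CPM, brain tumor 7 was the highest for spry2, spry4 and spred1. Brain tumor 13 was the highest for spry1, spred2b and dusp4 and the lowest for spred2a and spred3. In FPKM, which carry no trimmed-mean scaling, spry2 was higher in brain tumor 14 (153 FPKM) than in brain tumor 7 (137 FPKM).

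Marker levels also differed among the tumors. Brain tumor 8 had the highest pan-neuronal sum of the tumors (2490 CPM against 632 to 1760 CPM in the other 6) and the lowest myelin sum (12176 CPM). Brain tumors 7 and 13 had the highest myelin sums (40701 and 32584 CPM), and brain tumor 13 had the lowest pan-neuronal and endothelial sums (632 and 83.3 CPM). Brain tumor 14 had the second lowest myelin sum (15404 CPM). It was the highest tumor for dusp6 (436 CPM) and spred2a (77.5 CPM), next to brain tumor 7 for spry2 (340 CPM), and the lowest for dusp4 (15.9 CPM). In log2 CPM it lay above the tumor mean for 4 of the 10 members. The part of these markers in the members' levels was not tested. Without brain tumor 8 the log2 fold changes were 2.59 for spry4, 1.96 for spry2, 1.14 for dusp6 and -2.23 for spred3. Without brain tumor 13 they were 2.41 for spry4, 1.94 for spry2, 1.0 for dusp4 and -1.84 for spred3. Each of these genes passed the test in both cases.

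**Figure D4:**
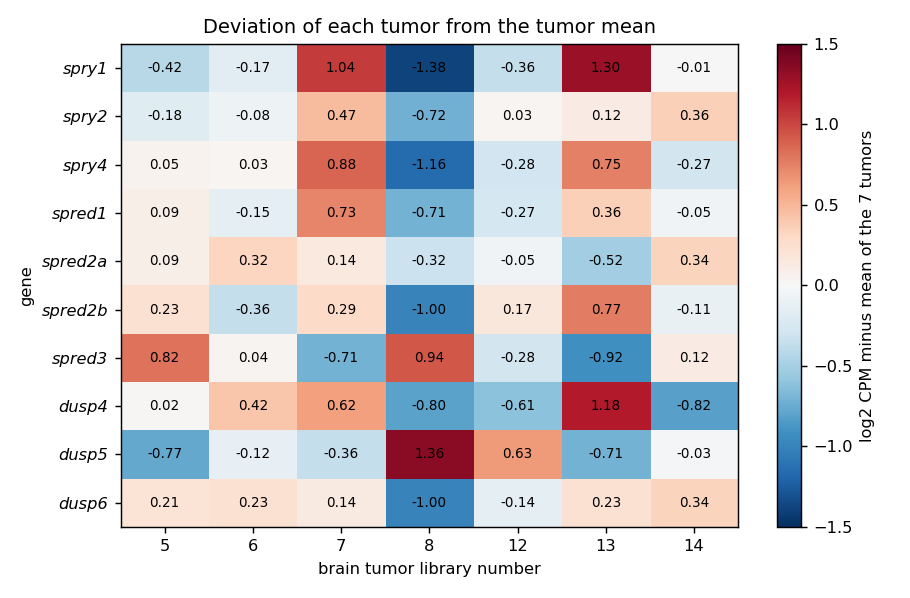
Deviation of each of the 7 brain tumors from the mean of the tumors, in log2 CPM, for each gene, with red above and blue below the mean and the value printed in each cell. The column of brain tumor 8 is blue for all genes but spred3 (0.94) and dusp5 (1.36), and the columns of brain tumors 7 and 13 are red for the Sprouty genes and dusp4.

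Whether the inhibitors follow the level of NRAS, the named driver, was examined over the 7 tumors, since the groups are too far apart for a pooled correlation. Pearson's r with NRAS ran from -0.67 for spred2a (exact permutation p = 0.0909, adjusted p = 0.909 over 10 members) to 0.45 for spred2b (exact permutation p = 0.299, adjusted p = 0.979). Spearman's rho for the same genes was -0.32 (exact permutation p = 0.498, adjusted p = 1) and 0.29 (exact permutation p = 0.556, adjusted p = 1). None of the 10 members passed. For spry4, r was 0.11 (exact permutation p = 0.834, adjusted p = 0.991) and rho -0.14 (exact permutation p = 0.783, adjusted p = 1). For dusp6, r was 0.12 (exact permutation p = 0.686, adjusted p = 0.979) and rho 0.32 (exact permutation p = 0.498, adjusted p = 1). The tumors highest for spry1 and spry4, brain tumors 13 and 7, had the highest and the lowest NRAS level, 46.2 and 21.2 CPM. Without these 2 tumors, the farthest from the NRAS median, r over the other 5 had the opposite sign for 5 of the 10 members. The largest move was that of dusp4, from 0.23 to -0.81, and r was -0.14 for spred2a, 0.34 for spred2b, -0.18 for spry4 and 0.01 for dusp6. The sign changed for spry2, spry4, spred1, dusp4 and dusp5. With the same sign, r became smaller in size for spred2a, spred2b, dusp6, spry1 (0.29 to 0.08) and spred3 (-0.27 to -0.05). The values over 7 tumors thus depended on these 2 tumors. Whether reads of the transgene are counted under this ID is left unsaid by the labels.

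The profiles of other genes were set beside those of spry4, spred1 and dusp6 by the mean absolute difference of log2 CPM over the 15 libraries after each gene's own mean was subtracted, among 13335 genes. Both groups enter this measure, so a similar change between the groups can by itself bring 2 profiles near. Likeness within the tumors alone was not tested. The nearest to spry4 were map7d3 (0.16), GNA13 (ENSDARG00000037924, 0.17) and NCK1 (ENSDARG00000074262, 0.18). Their log2 fold changes were 2.62, 2.59 and 2.52, close to the 2.55 of spry4. The nearest to dusp6 were PHYHIPL (0.14), acp1 (0.14) and ACSS2 (0.14), and to spred1 pitpnbl, C16H1orf43 and TMEM106B (each at about 0.10).

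Related genes of the pathway were counted in lists, the members left out. Each count is to be read beside all tested genes, of which 43.5% were higher and 33.4% lower with a median of 0.21, and no list was tested against them. Of 6 other MAP kinase phosphatases 2 rose and 1 fell, while 3 did not pass. Their median log2 fold change was 0.09. DUSP7 (ENSDARG00000101413), the closest relative of DUSP6 and likewise an ERK phosphatase of the cytoplasm, rose from 46.1, 50.1 and 51.9 CPM in normal brain to 158, 178 and 272 CPM in the tumors (lowest, median, highest). Its groups lay far apart, and its log2 fold change was 1.96 ± 0.12 (adjusted p = 9.33e-10). DUSP16, which acts on the stress-activated kinases, rose by 0.38 ± 0.14, and DUSP10, a phosphatase of those kinases and of p38, fell (-1.77 ± 0.27). DUSP1, DUSP2 and DUSP8, at -0.07, -0.42 and 0.25, did not pass. The call of DUSP16 did not hold with median-ratio size factors, where 1 member of the list rose.

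Of 11 atypical dual specificity phosphatases, which lack the kinase-binding domain of the members, 4 rose and 3 fell (median 0.04). The increases were in dusp11 (1.92 ± 0.09), DUSP22 (ENSDARG00000039850, 2.97 ± 0.22), DUSP12 and dusp22a, and the decreases in dusp3a (-2.73 ± 0.29), dusp14 (-2.87 ± 0.32) and DUSP23 (ENSDARG00000089245). DUSP26, DUSP28 and the IDs ENSDARG00000045200 (DUSP19) and ENSDARG00000009844 (DUSP23) did not pass.

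Of 10 IDs of other negative regulators of receptors and Ras, 4 rose and 5 fell (median -0.15). The 4 that rose encode Ras GTPase-activating proteins, which switch Ras off: RASA1 on 2 IDs (ENSDARG00000035535 at 1.36 ± 0.10 and ENSDARG00000073665 at 2.65 ± 0.27), RASA2 (0.54 ± 0.14) and RASA3 (0.80 ± 0.17). The decreases were in IL17RD, the receptor-bound inhibitor Sef (-1.45 ± 0.23), in LZTR1, an adaptor for the degradation of Ras proteins (-0.81 ± 0.13), in LRIG1 and ERRFI1, inhibitors of ErbB receptors (-0.92 ± 0.25 and -0.89 ± 0.25), and in FGFRL1, a receptor without a kinase domain (-1.30 ± 0.37). Its copy fgfrl1b did not pass. IL17RD is known in the zebrafish embryo to be induced with spry4 and dusp6, and here its levels were 7.85, 9.12 and 10.7 CPM in normal brain and 1.48, 3.45 and 6.09 CPM in the tumors, below every normal brain.

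Proteins that Sprouty and Spred act through were counted over 22 IDs, of which 9 rose, 5 fell and 8 did not pass (median 0.08). CBLB, a ubiquitin ligase of receptors, rose by 2.40 ± 0.17 and the phosphatase PTPN11 (ENSDARG00000020334, SHP2) by 1.73 ± 0.13. Of the IDs named NF1, neurofibromin, ENSDARG00000004184 rose from 58.9, 63.0 and 71.9 CPM to 114, 176 and 317 CPM (lowest, median, highest), with no overlap and a log2 fold change of 1.54 ± 0.18. The other, ENSDARG00000012982, did not pass (0.00 ± 0.13, adjusted p = 0.977). BRAF, TESK1 (ENSDARG00000078251), PPP2CA (ENSDARG00000030224), ptpn11b and GRB2 (ENSDARG00000105276) fell. BRAF was at -1.72 ± 0.16 and TESK1, a kinase that binds Sprouty, at -1.54 ± 0.15. GRB2 fell from a mean of 20.8 CPM in normal brain to 14.7 CPM in the tumors. Its more abundant copy grb2b rose from a mean of 79.4 to 167 CPM (1.07 ± 0.12), with no overlap. Another PPP2CA ID (ENSDARG00000053404) rose by 0.23 ± 0.09, which is close to the median of 0.21 over all tested genes. Another TESK1 ID (ENSDARG00000079281) did not pass.

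Among 13 IDs of MAP kinases, the substrates of the phosphatases, none rose in edgeR's test, 8 fell and 5 did not pass (median -0.84). In that count of none, no ID had a positive log2 fold change at an unadjusted p below 0.05, and DESeq2 also called none higher. MAPK3 (ERK1) overlapped, at 117 to 144 CPM in normal brain and 81.9 to 168 CPM in the tumors, and did not pass (-0.09 ± 0.13, adjusted p = 0.539). The smallest p-values of the list were those of MAPK10, the neuronal stress-activated kinase JNK3 (-2.90 ± 0.18), and mapk11, a p38 kinase (-2.19 ± 0.22). MAPK7, both MAPK12 IDs and MAPK14 (ENSDARG00000000857) did not pass either.

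Upstream, 11 of 28 receptor tyrosine kinases rose, 14 fell and 3 did not pass (median -0.38), against 43.5% higher and 33.4% lower over all tested genes. ERBB3 (ENSDARG00000006202) and erbb3b, neuregulin receptors, rose by 6.42 ± 0.22 and 3.17 ± 0.19, and FGFR3 and ntrk2b fell (-2.19 ± 0.21 and -3.61 ± 0.38). The other fibroblast growth factor receptors went in both directions. FGFR1 (ENSDARG00000011190 by 1.89 ± 0.23, ENSDARG00000011027 by 1.20 ± 0.18) and fgfr4 (by 3.71 ± 0.58) rose, and FGFR2 fell (-1.82 ± 0.29). PDGFRA, KIT and IGF1R (ENSDARG00000034434) did not pass. Of 18 genes outside the members that are commonly read as ERK output, 7 rose, 5 fell and 6 did not pass (median 0.09). The transcription factor genes MYC (ENSDARG00000045695) and ETV4 rose by 3.41 ± 0.24 and 4.64 ± 0.34. The decreases were in etv5a (-1.93 ± 0.15), in 3 EPHA4 genes, among them epha4b (-2.86 ± 0.26), and in egr1 (-1.24 ± 0.31). Unlike etv5a, its copy etv5b rose, from a mean of 81.4 CPM in normal brain to 320 CPM in the tumors (1.97 ± 0.22), with no overlap.

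**Figure D5:**
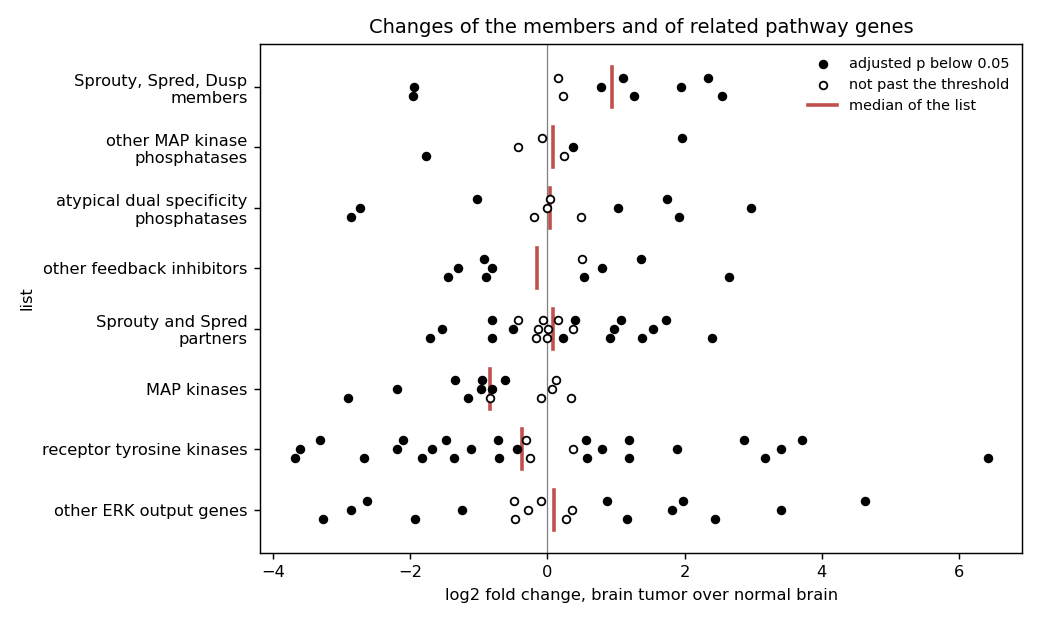
Log2 fold change, brain tumor over normal brain, of each tested gene in the members and in 7 lists of related genes, with 1 point per gene (filled where the adjusted p is below 0.05) and a red bar at each list's median. The members' median is at 0.95, the MAP kinases lie mostly left of 0 with a median of -0.84, and the other lists spread on both sides.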

How the data were processed

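Dissected tissue was frozen, and libraries were made with an Illumina TruSeq v2 oligo dT kit and read as single reads, per the labels' protocols. The submitters' processing notes name Novoalign 2.08.01 and DESeq2; the counter, its treatment of reads shared by gene copies or overlapping genes, its use of strand and the genome build were not given in any source used here, so no coordinates are printed.

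Per the file headers, the deposited table holds a whole-number read count for each gene and library. The authors' FPKM values are per kilobase and per 1000000 counts. The log2 fold change and adjusted p-value columns are those of the authors' comparison, per the file headers.

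The tests used R 4.3.3 with edgeR 4.0.16 (and limma 3.58.1 for an alternative): filterByExpr (minimum count 10, minimum total 15) kept 19260 of 22513 genes, scale factors came from TMM (trimmed means of M-values), and the two-sided quasi-likelihood test of group, with no covariate, was adjusted over all tested genes (threshold 0.05). CPM use scaled library sizes of the tested genes, and log2 CPM a prior count of 2. The SE is the log2 fold change divided by the root of the F statistic. The fit was run on simulated data before use.

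Members and lists were chosen with earlier results of these data known. Genes named from a list are the 2 of smallest p in each direction, those of small classes and some copies of named genes. DUSP7, NF1, MAPK3, IL17RD, GRB2, grb2b and etv5b were given more values after their results were seen. FGFR1, FGFR2 and fgfr4 were also named after their results were seen. Profiles were compared for genes with at least 10 CPM in a group. Alternatives were other scalings and filters, robust dispersions, DESeq2 1.42.0, limma-voom and left-out libraries. One gene of the lists is not reported here by name.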

Additional observations from a re-analysis of the deposited data

Results flagged for a closer look

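One value stood far from its group. In brain tumor 8, dusp6 was at 173 CPM against 313 to 436 CPM in the other tumors, and the gap to the nearest tumor took 0.641 of the whole range of log2 CPM. It was the 1 of 20 groups of values (10 genes in 2 groups) past Dixon's limit, and chance flags about 1 in 20.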

How the results depend on the processing

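Of 1040 values under other settings, 971 kept their direction and side of the threshold, or for counts stayed within 1.5 times. All 15 fits that left out 1 library called 6 members higher and 2 lower, as did the other settings except those below. Libraries 1 to 8 alone and libraries 9 to 15 alone each called 5 higher, losing spred2b and dusp4. The log2 fold change of spred2a, which never passed, was -0.038 with median-ratio size factors, -0.038 with DESeq2, -0.096 in libraries 9 to 15 alone and -0.057 without the 4 tumors with muscle transcripts, a setting chosen after seeing the data.

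Of the other MAP kinase phosphatases 1, not 2, rose with median-ratio factors, library size alone, a mean of at least 5 CPM, DESeq2, libraries 1 to 8, libraries 9 to 15 and without the muscle-bearing tumors, and 1 to 2 without 1 library (1 without normal brain 1, 2, 4 or 11 or brain tumor 8 or 14). The number lower was 0 at a mean of at least 5 CPM, where fewer genes were tested, 2 in libraries 1 to 8, 2 in libraries 9 to 15, 2 without the muscle-bearing tumors, and 1 to 2 without 1 library (2 without brain tumor 12). Libraries 9 to 15 alone called 2 other negative regulators higher and 3 lower, DESeq2 called 8 Sprouty and Spred partners lower, and 1 MAP kinase was higher without the 4 libraries in doubt.

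The difference spry1 minus spry4 was -0.34 with a prior count of 0.5. Without 1 library it ran from -0.44 to -0.27, spry1 minus spry2 from -0.030 to 0.28, spred1 minus spred2a from -0.13 to 0.095, spred2a minus spred2b from -0.67 to -0.34 and dusp4 minus dusp6 from -0.13 to 0.22. With library size alone the r with NRAS was -0.061 for spry1, -0.28 for spry4, 0.047 for spred3, -0.12 for dusp4, 0.035 for dusp5 and -0.015 for dusp6. Without 1 tumor r ran from -0.60 to 0.79 for spry1, -0.27 to 0.39 for spry2, -0.67 to 0.61 for spry4, -0.61 to 0.63 for spred1, -0.14 to 0.71 for spred2b, -0.69 to 0.51 for spred3, -0.88 to 0.54 for dusp4, -0.40 to 0.30 for dusp5 and -0.13 to 0.23 for dusp6. Where no construction is named, the cause was not tested. No paired analysis was possible because the labels give no pairing of tumors with normal brains. Depth, 70 to 9607 counts behind each value of a member, limits spry1 and dusp5 most.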
